A study of Mus musculus with 6 samples.

Results

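The 8 genes described here are regulators and executors of apoptosis: the anti-apoptotic genes Bcl2, Bcl2l1 and Mcl1, the BH3-only genes Bid, Bcl2l11 and Hrk, the initiator caspase Casp8, and Apaf1. They were chosen by name for their known roles, with earlier results of these data known, by taking the rows of the gene table that carry these symbols. They are 8 of the 41386 genes in the table and 8 of the 18569 genes with enough counts to be tested. Their RNA was measured by RNA-seq in the mouse hippocampus, in 3 libraries from sham-operated mice (sham) and 3 libraries from mice with cerebral ischemia and reperfusion (I/R). All mice were 56 days old and labelled C57BL/6, and the study's methods give them as C57BL/6J males. In the I/R group a filament closed the left middle cerebral artery for 1.5 h, after which blood flow was restored for 24 h. The sham group had the same anaesthesia with isoflurane and the same neck surgery, without the filament, so that both groups carried the effects of anaesthesia and surgery. Per the methods, 3 hippocampi were pooled for each replicate, and the spread between libraries is therefore a spread between pools.

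Apoptosis is controlled at the mitochondrial outer membrane by the BCL2 protein family. Anti-apoptotic members such as BCL2, BCL-XL and MCL1 hold the pore-forming proteins BAX and BAK in check, and BH3-only proteins bind to the anti-apoptotic members or activate the pore formers directly. When the membrane is opened, cytochrome c reaches the cytosol and binds APAF1, which assembles into the apoptosome and activates caspase-9, while death receptors at the cell surface activate caspase-8, which can cleave BID and so connect to the mitochondrial route. Both routes end in executioner caspases. The pathway is widely studied in neurons after ischemia, and the order of the results follows these roles.

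After I/R, 4 of the 8 genes rose and 1 fell. Casp8 rose 4.26-fold, Mcl1 rose 2.59-fold, Bcl2l11 rose 2.11-fold and Apaf1 rose 1.47-fold, whereas Hrk fell 2.93-fold. Bcl2, Bcl2l1 and Bid did not pass the test. A gene was called changed at a Benjamini-Hochberg adjusted p under 0.05 in edgeR's quasi-likelihood test over all tested genes, with a fold change over 1.2 in either direction. By the same rule 41.8% of all tested genes were called, 21.8% higher and 19.9% lower, against 62.5% of the 8 genes. With any sham library left out, or without the 2 libraries low in choroid plexus markers, 4 of the 8 genes were called, Bcl2l11 no longer among them. Of all tested genes, 27.8% to 29.3% were called under these settings. With no scaling beyond library size, and on both log2 scales of the deposited FPKM (fragments scaled to gene length and library size), 7 of the 8 genes were called, 6 higher and 1 lower. Of all tested genes, 45% were called with library size only, and 43.9% and 44.9% on the 2 FPKM scales. With no scaling beyond library size, 75.8% of all calls over the table were higher, against 52.3% with the scaling used here. A fold change over 2 together with the adjusted p was met by 4 of the 8 genes, 3 higher and 1 lower, and by 14.9% of all tested genes, 10.2% higher and 4.67% lower. The 2 groups of libraries did not overlap in 6 of the 8 genes, against 57.4% of all tested genes. The median log2 fold change was 0.39 over the 8 genes and 0.026 over all tested genes. No property of the 8 genes as a list was tested, and the call rate of the whole table is given because many genes changed.

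The libraries held 37493042 to 44788547 counts, and levels are given as CPM, counts scaled to a common library size that was corrected with TMM factors (edgeR's trimmed mean of M-values). The TMM factors were 1.06 to 1.15 in I/R and 0.908 to 0.920 in sham. Without these factors the median over all tested genes moved to 0.28 on the log2 scale, and changes of the genes below are relative to the TMM scale unless stated. The markers of dentate granule cells, with a summed level of 475 to 516 CPM, and of CA1 and CA3 pyramidal cells, with 2009 to 2109 CPM, were present in the sham libraries. In I/R these sums were 190 to 271 CPM and 451 to 1013 CPM. Choroid plexus markers were low in I/R replicate 3 and sham replicate 1, and results were also computed without these 2 libraries. I/R replicate 1 had the value farthest from the sham mean in 6 of the 8 genes.

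**Figure D1:**
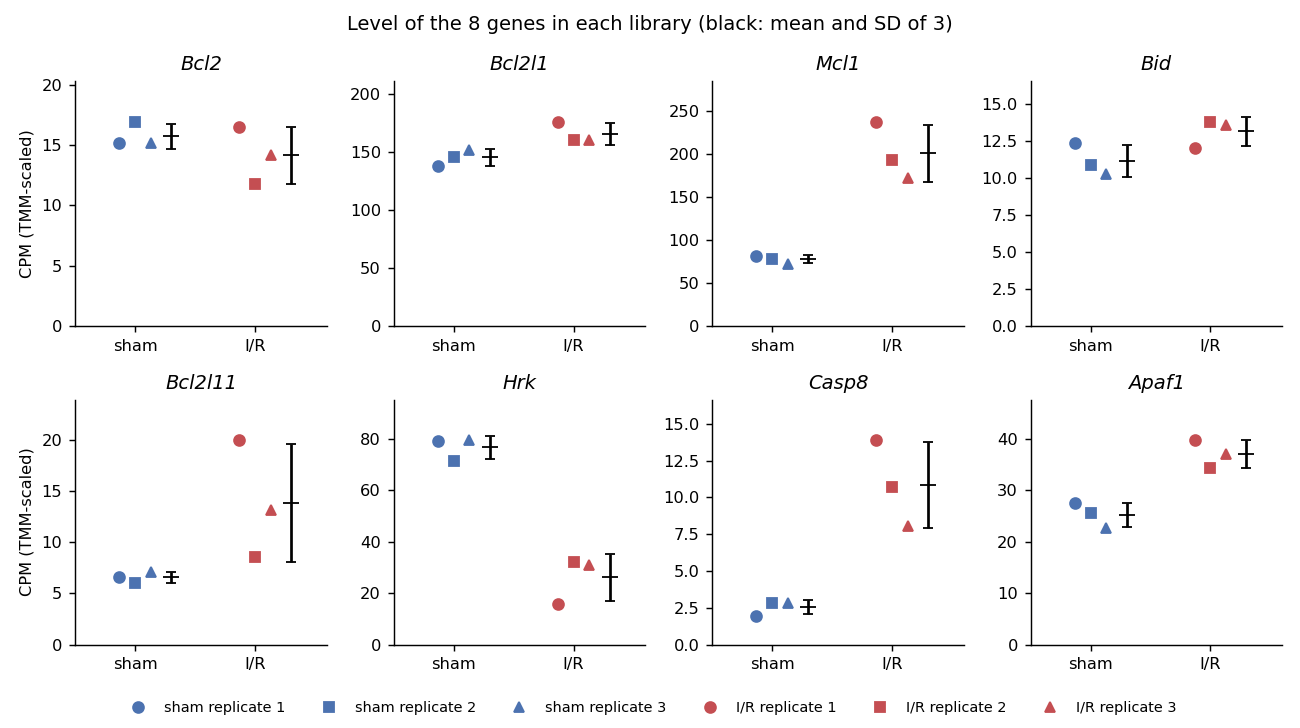
Level of each of the 8 genes in every library, in TMM-scaled CPM on axes that start at 0, with sham in blue, I/R in red, a symbol for each replicate, and the mean and SD of 3 libraries in black. The I/R libraries lie above all sham libraries in Mcl1, Bcl2l1, Bcl2l11, Casp8 and Apaf1 and below them in Hrk, and the groups overlap in Bcl2 and Bid.

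The sequences upstream of the 4 genes that changed more than 2-fold are shown because they are the DNA next to the starts of the genes that moved most. They are the 250 bases before the RefSeq start site on build GRCm38.p6, read 5′ to 3′ on the strand of the gene, with matches to the motifs searched in capitals. The build differs from that of the gene table, whose coordinates are on the BALB/cJ assembly. All 8 genes matched the RefSeq table, with 11 start sites, and of the start sites of Bcl2l11 the upstream one is shown.
Casp8, chr1:58802252-58802501, plus strand: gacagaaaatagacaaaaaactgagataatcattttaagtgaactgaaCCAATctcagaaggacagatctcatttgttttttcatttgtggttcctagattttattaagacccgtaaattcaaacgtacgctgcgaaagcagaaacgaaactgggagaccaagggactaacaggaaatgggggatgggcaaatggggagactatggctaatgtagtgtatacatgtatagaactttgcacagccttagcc
Mcl1, chr3:95658471-95658720, plus strand: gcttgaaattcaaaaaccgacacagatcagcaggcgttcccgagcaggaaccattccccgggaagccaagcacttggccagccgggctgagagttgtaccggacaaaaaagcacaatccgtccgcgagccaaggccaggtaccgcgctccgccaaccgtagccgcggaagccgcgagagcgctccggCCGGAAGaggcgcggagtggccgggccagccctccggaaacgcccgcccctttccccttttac
Bcl2l11, chr2:128125788-128126037, plus strand: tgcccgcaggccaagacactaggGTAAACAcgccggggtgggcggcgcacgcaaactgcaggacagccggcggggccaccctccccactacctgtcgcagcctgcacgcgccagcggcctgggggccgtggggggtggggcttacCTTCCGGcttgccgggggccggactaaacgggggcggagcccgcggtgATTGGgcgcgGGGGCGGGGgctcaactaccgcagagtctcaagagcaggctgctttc
Hrk, chr5:118169514-118169763, plus strand: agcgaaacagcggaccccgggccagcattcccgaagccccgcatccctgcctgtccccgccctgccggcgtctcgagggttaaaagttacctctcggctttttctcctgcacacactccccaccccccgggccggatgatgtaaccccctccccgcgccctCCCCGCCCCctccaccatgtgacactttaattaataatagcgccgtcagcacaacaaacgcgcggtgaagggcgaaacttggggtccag

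These windows differ in base composition and in the motifs they hold. The window of Casp8 had 39.6% G and C, that of Hrk 63.2%, that of Mcl1 64.4% and the upstream window of Bcl2l11 72% G and C. On both strands of 32851 RefSeq windows of the same length, the motifs searched were AP-1 (TGANTCA), CRE (TGACGTCA), FOXO (TGTTTAC), STAT (TTCNNNGAA), ETS (CCGGAAG), Sp1 (GGGGCGGGG), NF-kappa B (GGGANTTCC) and the CCAAT box (CCAAT), and in the windows of the 8 genes no base lay in 2 motifs. The FOXO letters occurred in 3.17% of all windows and, among the 8 genes, in Bcl2l11 alone, 227 bases before the start on the minus strand. The Bcl2l11 window also held ETS letters at 105 bases, a CCAAT box at 57 bases and Sp1 letters at 47 bases before the start. The ETS letters, found in 6.91% of all windows, were also in the window of Mcl1, 63 bases before the start.

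The window of Casp8 held a CCAAT box 202 bases before the start, a motif found in 33.8% of all windows. Sp1 letters were in 10.4% of all windows and in 5 of the 11 windows of the 8 genes, those of Apaf1, Bcl2, Bcl2l11 (upstream), Bid and Hrk. These windows had 63.2% to 75.6% G and C, and the Sp1 letters are themselves only G and C. NF-kappa B letters, in 1.43% of all windows, were found in the window of Bcl2l1, which did not pass the test. AP-1, CRE and STAT letters, in 6.75%, 1.55% and 7.02% of all windows, were in none of the windows of the 8 genes. A match is a description of the letters in the window.

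Among the anti-apoptotic genes, Mcl1 rose and neither Bcl2 nor Bcl2l1 was called. Mcl1 encodes a short-lived BCL2 family protein that many cell types need for survival (MGP_BALBcJ_G0027561, chr3:93188342-93192730, plus strand). It was at 237, 193 and 172 CPM in I/R replicates 1, 2 and 3 and at 81.8, 78.4 and 72.5 CPM in sham. Every I/R library was above every sham library, and the lowest I/R library was still far above the sham range. The means were 201 ± 33.3 CPM after I/R against 77.6 ± 4.71 CPM (SD, n = 3 each), and the log2 fold change was 1.37 (SE 0.13, 95% interval 1.07 to 1.67, edgeR adjusted p = 0.000439). The rise was called under each of the 17 alternative settings, with log2 fold changes of 1.23 to 1.64.

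Bcl2, the founding member of the family (MGP_BALBcJ_G0016311, chr1:104993874-105175271, minus strand), was at 16.5, 11.8 and 14.2 CPM after I/R and at 15.2, 16.9 and 15.1 CPM in the sham libraries. I/R replicate 1 lay inside the sham range and the other I/R libraries below it, so the groups overlapped. The log2 fold change was -0.15 (SE 0.15, 95% interval -0.49 to 0.18, edgeR adjusted p = 0.434), and its direction turned with the scaling, to 0.11 with library size only and to 0.071 and 0.088 on log2(FPKM + 1) and log2(FPKM + 0.1). It was called under none of the 17 alternatives.

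Bcl2l1 encodes BCL-XL, the anti-apoptotic protein best known from mature neurons (MGP_BALBcJ_G0026653, chr2:151385819-151436728, minus strand). It was at 176, 159.9 and 160.5 CPM after I/R and at 138, 146 and 151.9 CPM in the sham libraries. The groups did not overlap, but the gap between the lowest I/R and the highest sham library was small. The change was 0.19 on the log2 scale (SE 0.087, 95% interval -0.013 to 0.39), with an edgeR adjusted p of 0.119. With library size only it was 0.45 and called, with an edgeR adjusted p of 0.00731, and on both FPKM scales it was 0.44 and called, so that its call depends on the scaling.

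Ratios within a library do not depend on the scaling. The log2 ratio of Mcl1 to Bcl2 counts was 3.85, 4.03 and 3.60 after I/R against 2.43, 2.21 and 2.26 in the sham libraries, without overlap. The difference was 1.53, a 2.88-fold change of the ratio (exact two-sided permutation p = 0.1, the smallest that 3 against 3 libraries can give). The log2 ratio of Bax, a pore-forming effector, to Bcl2 was 2.60, 2.81 and 2.57 after I/R against 1.70, 1.68 and 1.72 in the sham libraries. This ratio was also higher in every I/R library, by 0.96 on the log2 scale, a 1.94-fold change (exact two-sided permutation p = 0.1).

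The 3 BH3-only genes went different ways, Bcl2l11 up, Hrk down and Bid without a call. Bcl2l11 encodes BIM, which binds all main anti-apoptotic proteins (MGP_BALBcJ_G0026447, chr2:126383463-126420301, plus strand). It was at 19.9, 8.51 and 13.1 CPM after I/R and at 6.61, 6.03 and 7.09 CPM in the sham libraries. All I/R libraries were above the sham libraries, but they were spread widely, with a coefficient of variation of 41.5% against 8.10% in sham. The means were 13.8 ± 5.75 CPM and 6.58 ± 0.532 CPM (SD, n = 3 each), and the log2 fold change was 1.08 (SE 0.28, 95% interval 0.42 to 1.73, edgeR adjusted p = 0.0182). Leaving out I/R replicate 1 lowered it to 0.71, still called. Leaving out sham replicate 1, 2 or 3 ended the call, with log2 fold changes of 1.07, 1.01 and 1.12 and edgeR adjusted p-values of 0.0590, 0.0760 and 0.0510. Without the 2 libraries low in choroid plexus markers the call was also lost, at a log2 fold change of 1.11 and an edgeR adjusted p of 0.0838.

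Hrk encodes Harakiri, a BH3-only protein known for its expression in neurons (MGP_BALBcJ_G0029969, chr5:117782651-117809236, plus strand). It was at 15.6, 32.0 and 31.0 CPM after I/R and at 79.1, 71.4 and 79.4 CPM in the sham libraries. Every I/R library was below every sham library, and I/R replicate 1 was the lowest. The means were 26.2 ± 9.18 CPM and 76.7 ± 4.54 CPM (SD, n = 3 each), and the log2 fold change was -1.55 (SE 0.25, 95% interval -2.12 to -0.98, edgeR adjusted p = 0.00242). It was called under all 17 alternatives, with log2 fold changes from -1.74 to -1.27, and it was the only one of the 8 genes to fall.

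Bid encodes the BH3-only protein that caspase-8 cleaves (MGP_BALBcJ_G0031191, chr6:118805504-118831345, minus strand). It was at 12.04, 13.8 and 13.6 CPM after I/R and at 12.4, 10.9 and 10.2 CPM in the sham libraries. I/R replicate 1 lay inside the sham range and the other I/R libraries above it. The log2 fold change was 0.24 (SE 0.13, 95% interval -0.064 to 0.54, edgeR adjusted p = 0.182). It was 0.49 and called with library size only, and 0.45 and 0.49 and called on the 2 FPKM scales. Its row shares 913 bases with that of Bcl2l13, a gene on the other strand with up to 2935 counts, and since the use of strand in the counting is not stated, the counts of Bid are uncertain.

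Casp8 encodes the initiator caspase recruited to death receptors (MGP_BALBcJ_G0015996, chr1:56690268-56738628, plus strand). It was at 13.9, 10.7 and 8.03 CPM in I/R, from 321 to 632 counts, and at 1.97, 2.85 and 2.82 CPM in sham, from 77 to 116 counts. The groups were far apart, with the lowest I/R library well above the highest sham library. The means were 10.9 ± 2.93 CPM and 2.55 ± 0.499 CPM (SD, n = 3 each), and the log2 fold change was 2.09 (SE 0.25, 95% interval 1.51 to 2.68, edgeR adjusted p = 0.000947). This was the largest change of the 8 genes, and it was called under all 17 alternatives, with log2 fold changes of 1.66 to 2.36. Of the stretches of 50 bases in its GENCODE transcripts, 4.37% also occurred in transcripts of another gene, Gm20257, against at most 0.351% in the other 7 genes.

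Apaf1, the core of the apoptosome (MGP_BALBcJ_G0017584, chr10:89352107-89448070, minus strand), was at 39.7, 34.4 and 37.0 CPM after I/R and at 27.4, 25.5 and 22.7 CPM in the sham libraries. The groups did not overlap, and replicates lay close together in both. The means were 37.0 ± 2.65 CPM and 25.2 ± 2.38 CPM (SD, n = 3 each), and the log2 fold change was 0.55 (SE 0.11, 95% interval 0.30 to 0.80, edgeR adjusted p = 0.00525). It was called under all 17 alternatives, with log2 fold changes of 0.47 to 0.81.

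**Figure D2:**
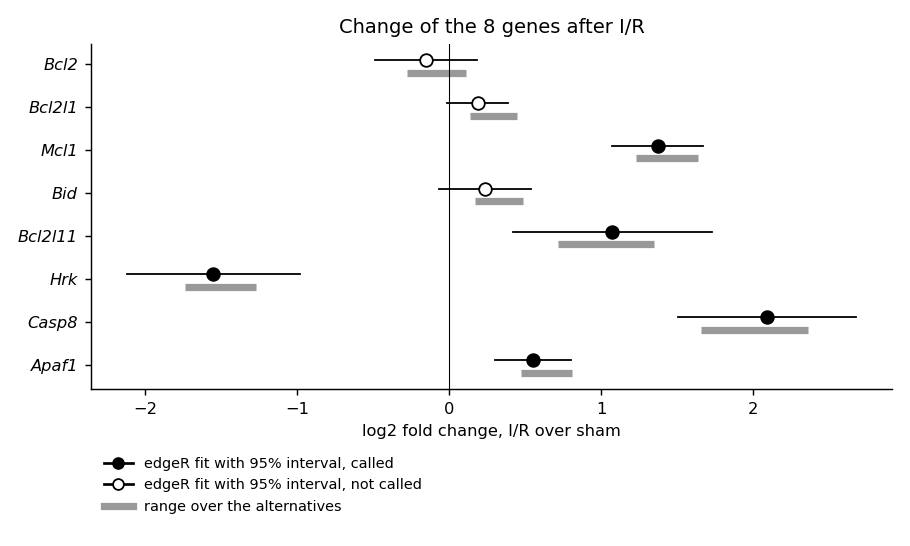
Log2 fold change of I/R over sham for the 8 genes, with the 95% interval of the edgeR fit as a line, filled points for genes called and open points for genes not called, and the range over the 17 alternatives as a grey bar. The grey bar crosses 0 only for Bcl2, whereas Casp8 lies highest at 2.09 and Hrk lowest at -1.55.

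The order of the genes by level, which needs a scale per gene length, changed between the groups. In sham the deposited FPKM placed Bcl2l1 first at a mean of 90.4, followed by Mcl1 at 33.2 and Hrk at 23.3, and Casp8 last at 1.17. The values of Bid (8.29) and Apaf1 (7.62) overlapped in sham, as did those of Bcl2 (2.88) and Bcl2l11 (2.83), and other neighbours in the order did not. In I/R, Mcl1 at a mean FPKM of 103 overlapped with Bcl2l1 at 123, both above every other gene. Apaf1 followed at 13.4, then Bid at 11.6, Hrk at 9.40, Bcl2l11 at 7.19 and Casp8 at 5.99, of which neighbours from Bid onwards overlapped, and Bcl2 was last at 3.10. Hrk thus went from the third to the fifth place and Bcl2 from the sixth to the last.

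The length behind the deposited FPKM was not the listed gene length, with a median ratio of 0.627 over 12520 genes. Counts divided by the listed length and the library total, computed here and scaled as FPKM is, gave the same order in sham, and in I/R the order Bcl2l1 (70.7), Mcl1 (64.5), Apaf1 (6.16), Bid (5.94), Hrk (5.27), Casp8 (4.63), Bcl2l11 (3.04) and Bcl2 (2.16). On this scale Casp8 and Bcl2l11 changed places, and in I/R all neighbours overlapped except Mcl1 and Apaf1.

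**Figure D3:**
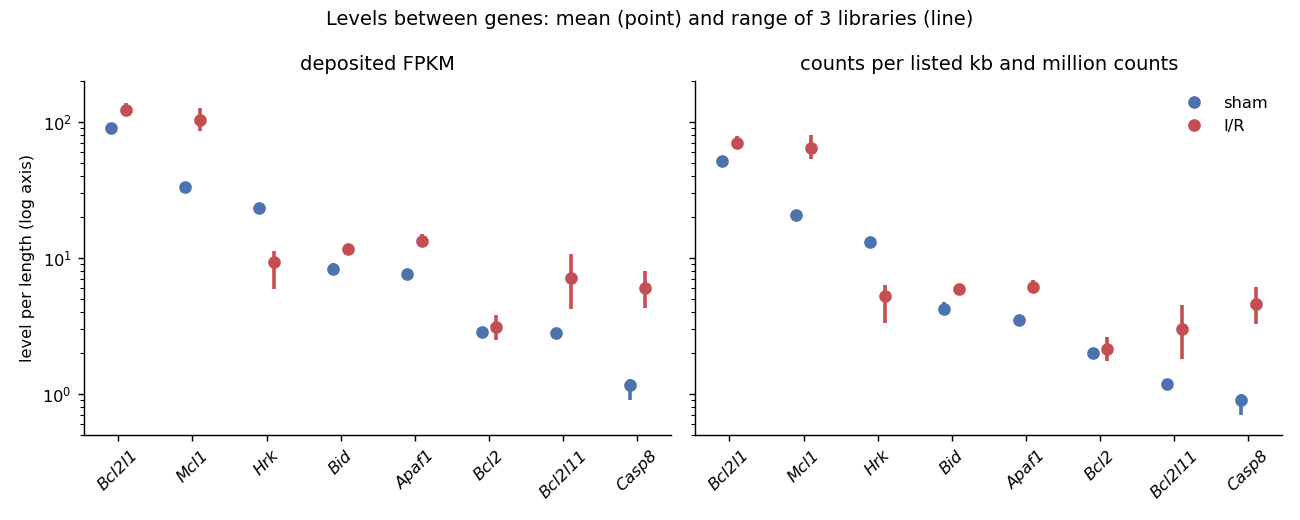
Mean (point) and range (line) of 3 libraries for the 8 genes in sham (blue) and I/R (red), on a log axis, as deposited FPKM on the left and as counts scaled by listed length and library total on the right. Bcl2l1 and Mcl1 are highest in I/R on both scales, and Hrk is the gene whose I/R mean lies below its sham mean.

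Levels of several cell type markers also differed between the groups, and in bulk tissue fewer cells of a type and less RNA per cell cannot be told apart. From staining, the paper reports fewer NeuN-positive neurons in hippocampal CA1 after I/R than in sham. The 6 neuronal markers tested were all called lower, and their summed level was 1442 to 2951 CPM after I/R and 5222 to 5462 CPM in the sham libraries, with the lowest sum in I/R replicate 1, where Hrk was also lowest. Per 1000 CPM of the neuronal markers, Hrk was at 10.8, 12.1 and 10.5 CPM after I/R and at 14.5, 13.1 and 15.2 CPM in the sham libraries. Hrk was thus lower in each I/R library on this scale too, at 0.781 of the sham mean. Per dentate granule cell marker level it was at 0.701 of the sham mean, whereas per pyramidal cell marker level the groups overlapped at 0.877. Each of these 6 neuronal markers fell less than Hrk, with log2 fold changes of -1.302 to -0.752 against -1.55 for Hrk. Of the pyramidal cell markers, Fibcd1 (-1.996) fell more than Hrk and Iyd (-1.549, not called) about as much. Wfs1 (-0.966), Mpped1 (-1.220), Dkk3 (-1.294) and Nptx1 (-1.363) fell less. The dentate ratio depends on which markers weigh most in the sum. Prox1 (log2 fold change -0.772), C1ql2 (-1.385) and Pdzd2 (-0.266) fell less than Hrk, and Dsp (-2.496), Tdo2 (-2.535) and Lct (-3.155) fell more. Prox1 and Pdzd2 gave 69.3 and 97.0 of the 190 CPM in I/R replicate 1. Bcl2 per 1000 CPM of neuronal markers was at 11.4, 4.46 and 4.80 CPM after I/R and at 2.78, 3.10 and 2.90 CPM in the sham libraries, without overlap. The means were 6.90 and 2.93 CPM, and the highest value was in I/R replicate 1, where the neuronal sum was lowest. Bcl2 itself was not called. The part of cell composition in the changes of Hrk and Bcl2 was not tested.

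Most tested markers of monocytes and macrophages, neutrophils and endothelium were called higher in I/R. The monocyte and macrophage markers summed to 71.6 to 134 CPM after I/R and 17.5 to 21.0 CPM in the sham libraries, with 5 of 6 called higher and Plac8 at 0 in sham. Of the I/R sums, 40.2 to 75.0 CPM were Cd68, a lysosomal gene that microglia also express. Neutrophil markers summed to 6.75 to 32.7 CPM against 0.436 to 1.74 CPM, with 4 of 5 called higher and Ly6g and Cxcr2 at 0 in sham. Endothelial markers summed to 318 to 532 CPM against 192 to 194 CPM, with 6 of 6 called higher. Microglial markers, of which 3 of 8 were called higher and 3 lower, summed to 258 to 350 CPM after I/R and 255 to 289 CPM in the sham libraries, so that the groups overlapped.

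Casp8 was set beside these sums. Per 1000 CPM of microglial markers it was 3.90-fold higher in I/R on average, without overlap, and per endothelial marker level 1.98-fold higher, also without overlap. Per monocyte and macrophage marker level its means were 119 in I/R and 135 in sham, and the groups overlapped. The part of these cells in the rise of Casp8 was not tested. These ratios were chosen after the data were seen and are given without a test.

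**Figure D4:**
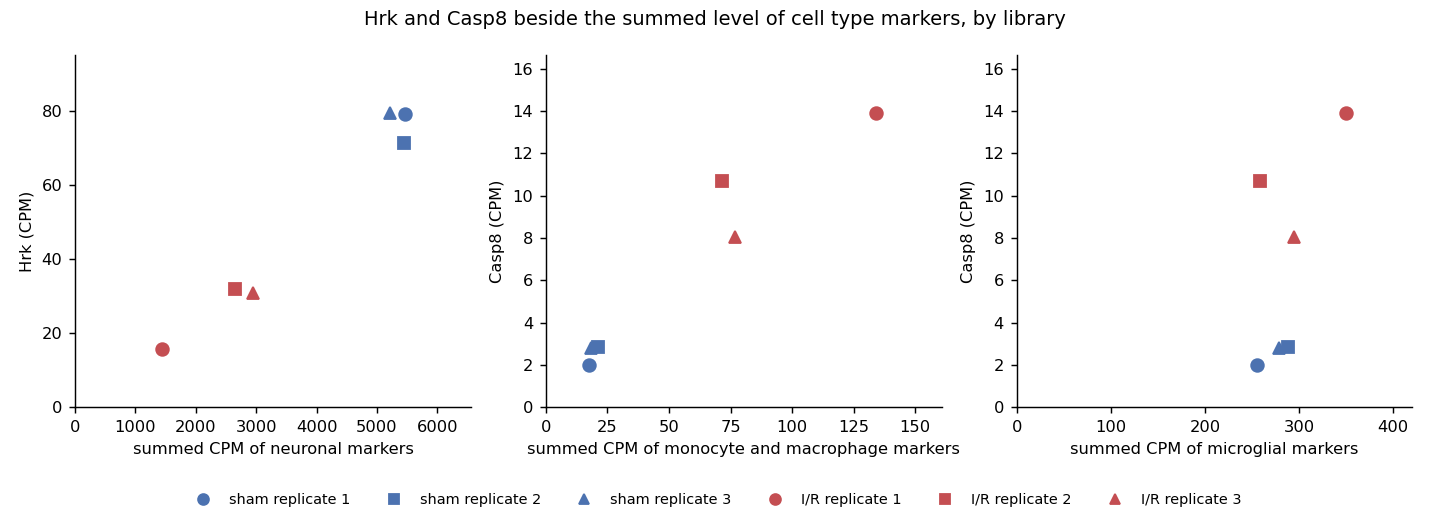
CPM of Hrk against the summed CPM of neuronal markers (left), and CPM of Casp8 against the summed CPM of monocyte and macrophage markers (middle) and of microglial markers (right), with a point for each library, sham in blue and I/R in red. Hrk and the neuronal sum are both lowest in I/R replicate 1, and Casp8 and the monocyte and macrophage sum are both highest there, whereas the microglial sums of the 2 groups overlap.

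For the 3 genes with the largest changes, the named genes with the nearest pattern over the 6 libraries were found by the root mean square difference of centred log2 CPM, among 16192 genes. For Casp8 these were Emcn (difference 0.0833), which encodes the endothelial glycoprotein endomucin, and Cd63 (0.0908), which encodes a tetraspanin of late endosomes. For Hrk they were Faah (0.0563), which encodes an enzyme that degrades anandamide, and Dagla (0.0818), which encodes an enzyme that makes another endocannabinoid. For Mcl1 they were Klf6 (0.0733), which encodes a zinc finger transcription factor, and Slc39a14 (0.0780), which encodes a metal ion transporter. Many genes changed between the groups, so a near pattern is a description and does not show a shared role or cell type.

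A wider list of 47 apoptosis genes put the 8 genes beside the rest of the pathway. Of these, 43 were in the table and 40 were tested, of which 16 rose, 9 fell and 15 did not pass the test. The called share was 62.5%, against 41.8% of all tested genes, 21.8% higher and 19.9% lower, and the median log2 fold change was 0.26. The counts by role below are to be read beside these shares. With library size only, 18 rose and 2 fell, so the number that fell depends on the scaling, and 45% of all tested genes were called. Bcl2l10, Bik and Fasl were below the count filter, and Bcl2a1a, Bcl2a1b, Bcl2a1d and Cycs were not analysed here.

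At the mitochondrion, all 3 pore-forming effectors were called. Bax rose by 0.80 (SE 0.10) and Bak1 by 0.88 (SE 0.18) on the log2 scale, with edgeR adjusted p-values of 0.00106 and 0.00608. Bok, a relative of both, had a log2 fold change of -0.96 (SE 0.33), but this call was lost under 8 of the 17 alternatives, including that without the 2 libraries low in choroid plexus markers. Bok was at 29.4 CPM in I/R replicate 1 and at 84.3 and 74.5 CPM in I/R replicates 2 and 3, and without I/R replicate 1 its log2 fold change was -0.62, still called. Bcl2l2, the anti-apoptotic BCL-W, fell by 0.37 on the log2 scale (SE 0.079, edgeR adjusted p = 0.00790), a call lost with library size only and on both FPKM scales.

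Of the 6 other BH3-only genes tested, 2 rose, 1 fell and 3 did not pass the test. Pmaip1, which encodes NOXA, a BH3-only protein that binds MCL1, was at 9.56, 12.7 and 9.65 CPM after I/R and at 1.87, 1.33 and 1.45 CPM in the sham libraries. It rose by 2.77 on the log2 scale (SE 0.21, edgeR adjusted p = 0.000280), and by 1.80 on log2(FPKM + 1), where the added 1 lowers the change of low genes. Bbc3, which encodes PUMA, rose by 0.64 (SE 0.10, edgeR adjusted p = 0.00211). Bnip3, known for hypoxia responses and mitophagy, had a log2 fold change of -0.41 (SE 0.090), and its call was lost with library size only, on both FPKM scales and without the 2 libraries low in choroid plexus markers.

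Of the 4 other caspase genes counted, 1 rose and 1 fell. Casp12, which encodes a caspase of the endoplasmic reticulum, rose by 1.88 on the log2 scale (SE 0.38, edgeR adjusted p = 0.00642), and by 0.92 on log2(FPKM + 1). Casp9, the caspase that APAF1 activates, was named after its values were seen. It was at 12.6, 11.5 and 10.4 CPM after I/R and at 19.0, 18.3 and 18.5 CPM in the sham libraries, which is a log2 change of -0.70 (SE 0.12, edgeR adjusted p = 0.00283). Apaf1 and Casp9, which act in the same complex, thus changed in opposite directions, and both were called under all 17 alternatives. The size of the Casp9 change depended on the scaling, at -0.44 with library size only and at -0.40 and -0.44 on log2(FPKM + 1) and log2(FPKM + 0.1).

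Of the 11 death receptor genes tested, with their ligands and adaptors, 7 rose and 1 fell. Over all tested genes 21.8% were called higher and 19.9% lower. Tnfrsf21, named after its values were seen, was the gene that fell, by 0.76 on the log2 scale (SE 0.11, edgeR adjusted p = 0.00168). It was called under all 17 alternatives. Tnfrsf1a, which encodes TNF receptor type 1, had the largest change, at 107, 69.3 and 63.5 CPM in I/R against 11.3, 11.6 and 10.7 CPM in sham. It rose by 2.84 on the log2 scale (SE 0.20, edgeR adjusted p = 0.000226), Tnfrsf10b, the TRAIL receptor, by 2.41 (SE 0.32) and Fas by 2.16 (SE 0.26). On log2(FPKM + 1) the rise of Tnfrsf10b was 0.95. Their partners around caspase-8 were named after their values were seen. Ripk1, a kinase of these complexes, rose by 1.90 (SE 0.27) and Cflar, which encodes the caspase-8 inhibitor FLIP, by 0.82 (SE 0.13). Fadd, the adaptor of caspase-8, rose by 0.78 (SE 0.25, edgeR adjusted p = 0.0365), a call lost under 6 of the 17 alternatives, among them the omission of replicate 2 or 3 of the I/R group and of replicate 1 or 3 of the sham group, and its change was 0.49 on log2(FPKM + 1).

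Among the IAP genes, which encode inhibitors of apoptosis proteins, 2 of 5 rose and 1 fell. Birc3 rose by 2.03 (SE 0.34, edgeR adjusted p = 0.00309) and Birc2 by 0.43 (SE 0.086), the latter not called without the 2 libraries low in choroid plexus markers. Birc2 was at 0.69 with library size only and at 0.66 and 0.69 on log2(FPKM + 1) and log2(FPKM + 0.1). Xiap, which encodes the direct caspase inhibitor, had a log2 fold change of -0.37 (SE 0.11), but its call was lost under 9 of the 17 alternatives.

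Of the 4 genes tested for proteins released from mitochondria, Diablo, whose product binds IAP proteins, rose by 0.55 (SE 0.14), a call lost without sham replicate 1, 2 or 3. Endog, which encodes a nuclease, had a log2 fold change of -0.45 (SE 0.15), but it was called under 3 of the 17 alternatives only. Of the 6 caspase substrates and execution nucleases, Rock1, a kinase behind membrane blebbing, rose by 0.75 (SE 0.12). Parp1, a DNA repair enzyme cleaved by caspases, fell by 0.46 (SE 0.084) and Dffa, the inhibitor of the caspase-activated nuclease, by 0.41 (SE 0.085), and both calls were lost with library size only and on both FPKM scales.

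**Figure D5:**
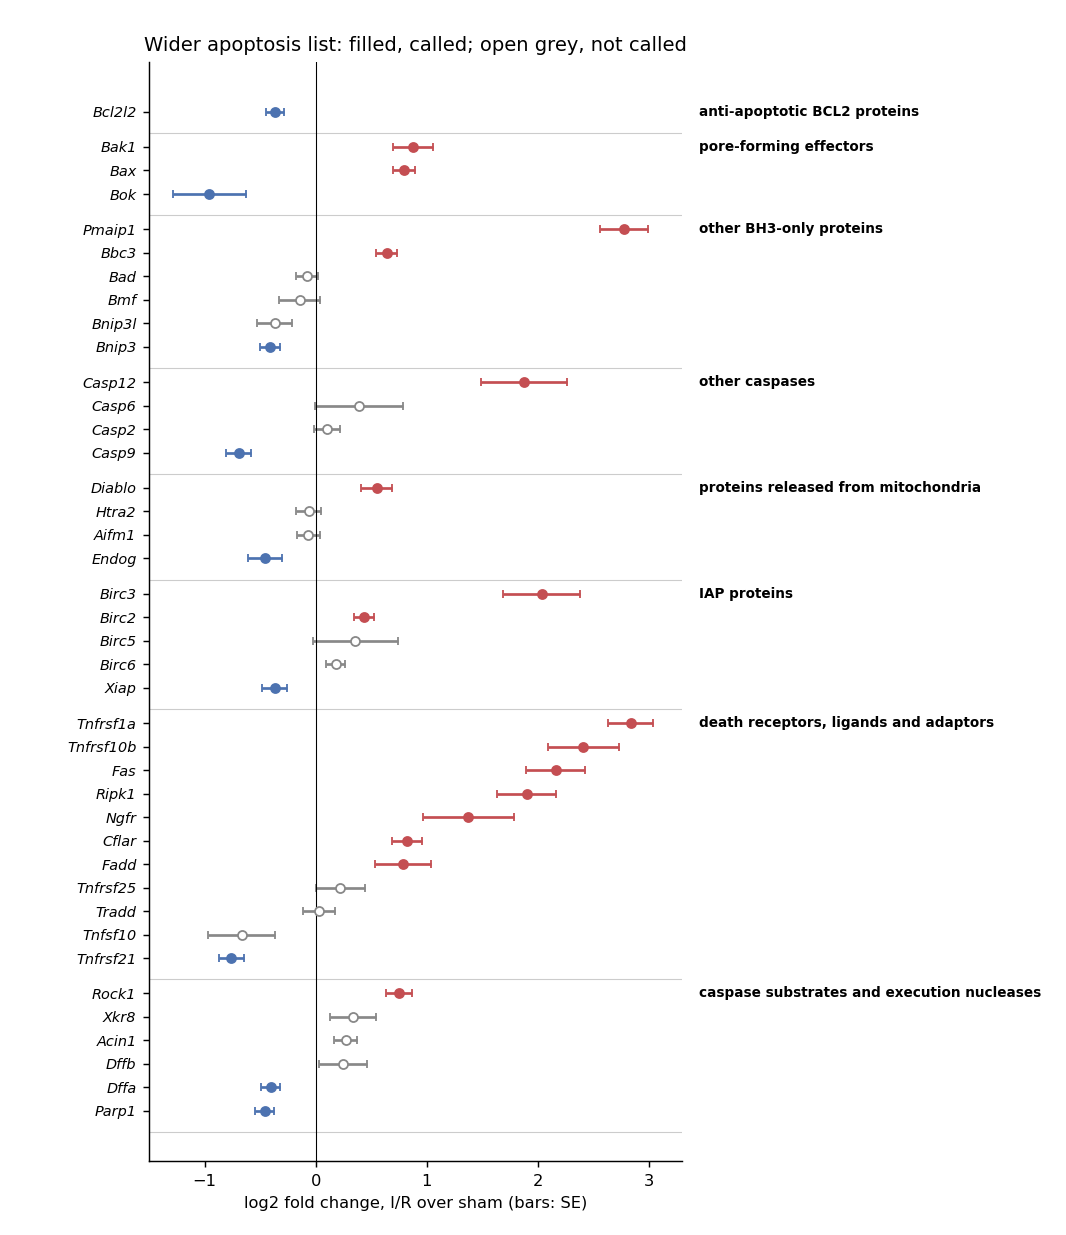
Log2 fold change of I/R over sham with its SE for the 40 tested genes of the wider apoptosis list, grouped by role, with red for genes called higher, blue for genes called lower and open grey points for genes not called. Of the 11 genes of death receptors, ligands and adaptors, 7 are red and Tnfrsf21 is blue. No gene called lower has a log2 fold change beyond that of Bok at -0.96.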

How the data were processed

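The authors aligned reads with TopHat 2 and counted reads per gene with HTSeq, and deposited raw counts for each library. The submitters' processing notes name Bowtie 0.12.2 and build mm8, whereas the gene identifiers are Ensembl's for BALB/cJ. The use of strand and the treatment of reads with several matches are not stated. The deposited FPKM values were the authors' own. The deposited signal (group means of counts), log2 fold changes and p-values of the authors' own comparison were not used. The table's 4 split lines were rejoined.

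The test on counts was that of edgeR 4.0.16, run in R 4.3.3 (filterByExpr, TMM, robust quasi-likelihood F-test, Benjamini-Hochberg adjustment over 18569 genes), with the fold limit of 1.2 taken from the study. The SE was the log2 fold change divided by the square root of F. FPKM was tested on log2(FPKM + 1) and log2(FPKM + 0.1) with limma 3.58.1, and counts also with limma-voom and DESeq2 1.42.0. The pattern distance used log2(CPM + 0.01). The fit was also run on simulated counts, in which far fewer genes were changed than were called here, in balanced directions. That run did not test the TMM scaling. Groups came from sample titles. The labels do not tie libraries to separate animals, so p-values measure the spread between these libraries.

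The genes and lists were chosen with earlier results of these data known. All 8 genes were named. Of the wider list, Bax was named, with up to 3 called genes of the largest change in each role. Casp9, Fadd, Ripk1, Cflar and Tnfrsf21 were added after their values were seen. Of the list fixed for the wider comparison, 2 genes are not reported here, and the counts leave them out. Promoter sequences came from RefSeq.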

Additional observations from a re-analysis of the deposited data

How the results depend on the processing

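The calls of Mcl1, Hrk, Casp8 and Apaf1 held under all 17 alternatives (scaling, count filter, test, replicate block, each replicate left out and, chosen after seeing the data, without the 2 libraries low in choroid plexus markers). Bcl2 reversed, without a call, to a log2 fold change of 0.11 with library size only and to 0.071 and 0.088 on log2(FPKM + 1) and log2(FPKM + 0.1). Under these settings Bcl2l1 was called at 0.45, 0.44 and 0.44 and Bid at 0.49, 0.45 and 0.49. Leaving out each replicate moved Bcl2l11 between 0.71 and 1.31, and without the 2 libraries low in choroid plexus markers it was 1.11 and not called. The causes were not tested. With a fold over 2, 2760 genes (14.9% of those tested) and 8 of the wider list were called, against 7756 (41.8%) and 25. Leaving out each replicate gave 5330 to 7976 calls, 27.8% to 42.6% of the tested genes. Among them were 19 to 24 of the wider list and 4 to 5 of the 8 genes. Without the 2 libraries low in choroid plexus markers there were 5255 calls, 27.9% of the tested genes. These held 4 of the 8 genes and 18 of the wider list. With library size only, 75.8% of the calls were higher, against 52.3%. The replicate block gave 6332 calls over the table (34.1% of the tested genes), 5 of the 8 genes and 21 of the wider list. Its log2 fold changes were 0.99 for Bcl2l11 and -1.61 for Hrk. The block changed no call among the 8 genes. Deviations of same-numbered libraries from their group means correlated at -0.158, 0.0331 and -0.257. The highest correlation between an I/R and a sham library was 0.356, for I/R replicate 3 and sham replicate 1, the 2 libraries low in choroid plexus markers. With 3 libraries per group, these values cannot decide whether replicate numbers mark pairs. The intervals of Bcl2, Bcl2l1 and Bid include 0.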

Other observations

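Mcl1 and Bcl2l11 were also set beside the summed levels of cell type markers, without a test and after the data were seen. Per 1000 CPM of microglial markers, Mcl1 averaged 670 CPM after I/R against 284 CPM in the sham libraries, 2.36-fold higher, and Bcl2l11 at 44.7 and 24.1 CPM, 1.86-fold higher, both without overlap. Per monocyte and macrophage marker level, Mcl1 was at 0.542 of its sham mean and Bcl2l11 at 0.415, both without overlap. Cd68, which microglia also express, gave 40.2 to 75.0 of the 71.6 to 134 CPM of these markers in I/R. In sham Cd68 gave 6.95 to 8.19 of 17.5 to 21.0 CPM, and these ratios depend much on Cd68. Per endothelial marker level, Mcl1 was at 1.23 of its sham mean without overlap, and Bcl2l11 at 0.981 with overlap. Astrocyte markers summed to 4451 to 4709 CPM after I/R and 4551 to 4883 CPM in the sham libraries, with 2 of 8 called higher and 4 lower. Oligodendrocyte markers summed to 6148 to 7169 CPM and 7381 to 9090 CPM, with 3 of 7 called lower, and those of their precursors to 133 to 145 CPM and 186 to 209 CPM, with 2 of 4 called lower. T and B cell markers summed to 3.68 to 4.42 CPM and 1.10 to 2.71 CPM, with 1 of 2 called higher, and Cd8a and Ms4a1 were at 0 in sham. Choroid plexus markers ranged from 32.6 to 3606 CPM in I/R and from 36.4 to 4400 CPM in sham, with none called. Of the erythrocyte markers only Alas2 was analysed, at 2.13 to 3.43 CPM and 1.94 to 2.79 CPM, and it was not called.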
